A study of Cricetulus griseus with 10 samples.

Results

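Lysosomal enzymes and membrane proteins were followed through the adaptation of CHO-K1 cells to suspension growth, as a set of 43 genes listed by symbol. A gene entered when it had a row in the deposited table, found by symbol or by its Chinese hamster gene number, and a mean of at least 10 normalised reads (reads scaled to a common library size by the authors) over the 10 libraries. Rows were found for 41 genes: 20 by symbol, 19 by gene number, and Lamp1 and Lamp2 under the names Lgpa and Lgpb, which RefSeq gives as their synonyms. The mean was reached by 39 of them, out of 13521 features that reached it and 25156 in all. Cathepsin C (Ctsc, mean 0.953, with 10 reads over all libraries) and iduronate 2-sulfatase (Ids, mean 6.32, with 60 reads) were below it, and cathepsin L (Ctsl) and beta-mannosidase (Manba) were not analysed here. Ids lay just outside the limit, and cathepsin S (Ctss, mean 23.8) and cathepsin K (Ctsk, mean 31.9) just inside.

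CHO-K1 is an established wild-type line of Chinese hamster ovary cells. The cells were taken at passages 0, 2, 4, 6 and 10 of adaptation to the medium SFM4CHO, here P0, P2, P4, P6 and P10, with 2 libraries at each. The labels name this medium and the same wild-type genotype for every group, P0 included, and do not say how the P0 cells were grown or whether duplicates were grown apart. The p-values therefore speak of the spread among these libraries alone, which may be technical. All 10 libraries come from 1 cell line.

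Lysosomes are the acidic compartments in which cells break down proteins, glycans and lipids brought in by endocytosis or autophagy. Their hydrolases are made in the endoplasmic reticulum, tagged with mannose 6-phosphate in the Golgi, carried onward by mannose 6-phosphate receptors such as M6pr, and activated by the low pH that the V-ATPase proton pump maintains. Heavily glycosylated proteins such as Lamp1 and Lamp2 line the membrane, and the transcription factor Tfeb can switch on many of these genes together. In CHO cells, lysosomal proteases and lipases are also known as host cell proteins that escape into the culture medium.

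Recovered reads per library ranged from 8394219 to 16599495. Duplicates correlated across features at 0.988, 0.989 and 0.992 at P0, P2 and P4, but at 0.956 and 0.93 at P6 and P10. In 2 libraries, P6 replicate 2 and P10 replicate 1, the very abundant feature Dym held 1.15% and 1.41% of normalised reads. It held 4.32% in P6 replicate 1 and 8.53% to 13.5% in the other 7. The counts of lysosomal genes at P6 and P10, and many single changes, are therefore given with and without P6 replicate 2 and P10 replicate 1, the pair. Without the pair, P6 and P10 hold 1 library each. A call there sets 1 library against 2 at P0 or P2 and carries no spread of its own passage. Of 5 mesenchymal markers, Vim stood at 12373 to 23048 normalised reads, Fn1 fell from 7604 and 5351 at P0 to 1344 and 1287 at P10 (log2 change -2.28, adjusted p = 0.000541), Col1a1 rose at P2 and P4 (7.19 at most at P0 and 54.8 at most at P2), and Thy1 was at 0 throughout. Of the epithelial markers, the keratins Krt8, Krt18 and Krt19 each had at most 4.95 and Cdh1 had 50.6 to 337. Of 13 leukocyte and macrophage markers, 12 had a row; their summed level ran from 130.7 to 148.0 at P0, from 181.0 to 194.7 at P2, from 250.3 to 273.9 at P4, from 207.4 to 295.5 at P6, and from 147.5 to 265.8 at P10, with Cd14 and Aif1 at 0 in 9 libraries each and Tyrobp in 8. Itgax, of the same list, had 0 and 1.44 at P0 and 71.2 and 78.1 at P4. Star, of the ovarian list, had 220.4 and 206 at P0 and 1775 and 1639 at P4. Both rose at P2, P4, P6 and P10 (at P10 by 4.04 and 2.54 in log2). At P10, the leukocyte markers Laptm5, Ptprc, Cd68, Fcer1g and Adgre1 differed by 2.26, 0.74, 0.73, -0.30 and -0.50, with no call. The ovarian markers Fshr, Amh and Inha differed by -0.28, -0.26 and -0.37 at P10, also with no call. Foxl2 and Cyp19a1, of the ovarian list, had no row. The part of these markers in the lysosomal differences was not tested; Cd68, one of them, is itself a lysosomal protein.

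By normalised reads, lysosomal genes stood highest in the middle of the series and spread apart late in it. The 39 genes together had 103843 and 96298 normalised reads (P0), 129553 and 122495 (P2), 141035 and 141949 (P4), 128443 and 100156 (P6) and 85338 and 106348 (P10). Both P4 libraries were above every other library, and the P10 libraries lay on either side of P0. As a percent of all normalised reads, of which Dym takes a varying share, P6 replicate 1 was highest (1.20%, against 1.14% and 1.17% at P4). On that scale P10 (0.789% and 0.821%) lay within the span of P0 (0.93% and 0.789%). Both statements changed when Dym was left out of the total. The P4 libraries were then highest (1.308% and 1.342%, against 1.254% in P6 replicate 1). P10 replicate 1 was then below both P0 libraries (1.024% and 0.911%), and P10 replicate 2 (0.919%) lay between them. In bulk RNA, a change in how many cells express a gene and a change in RNA per cell cannot be told apart. The median gene, relative to its own P0 mean, was at log2 ratios of 0.22 and 0.22 (P2), 0.42 and 0.38 (P4), 0.26 and -0.11 (P6) and -0.20 and 0.11 (P10). The median over all 13521 features stayed between -0.10 and 0.07 in the same libraries. The mean was highest at P4 for 21 of the 39 genes, and lowest at P0 for 17, whereas 17.1% of all features were highest at P4 and 28.2% lowest at P0.

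**Figure D1:**
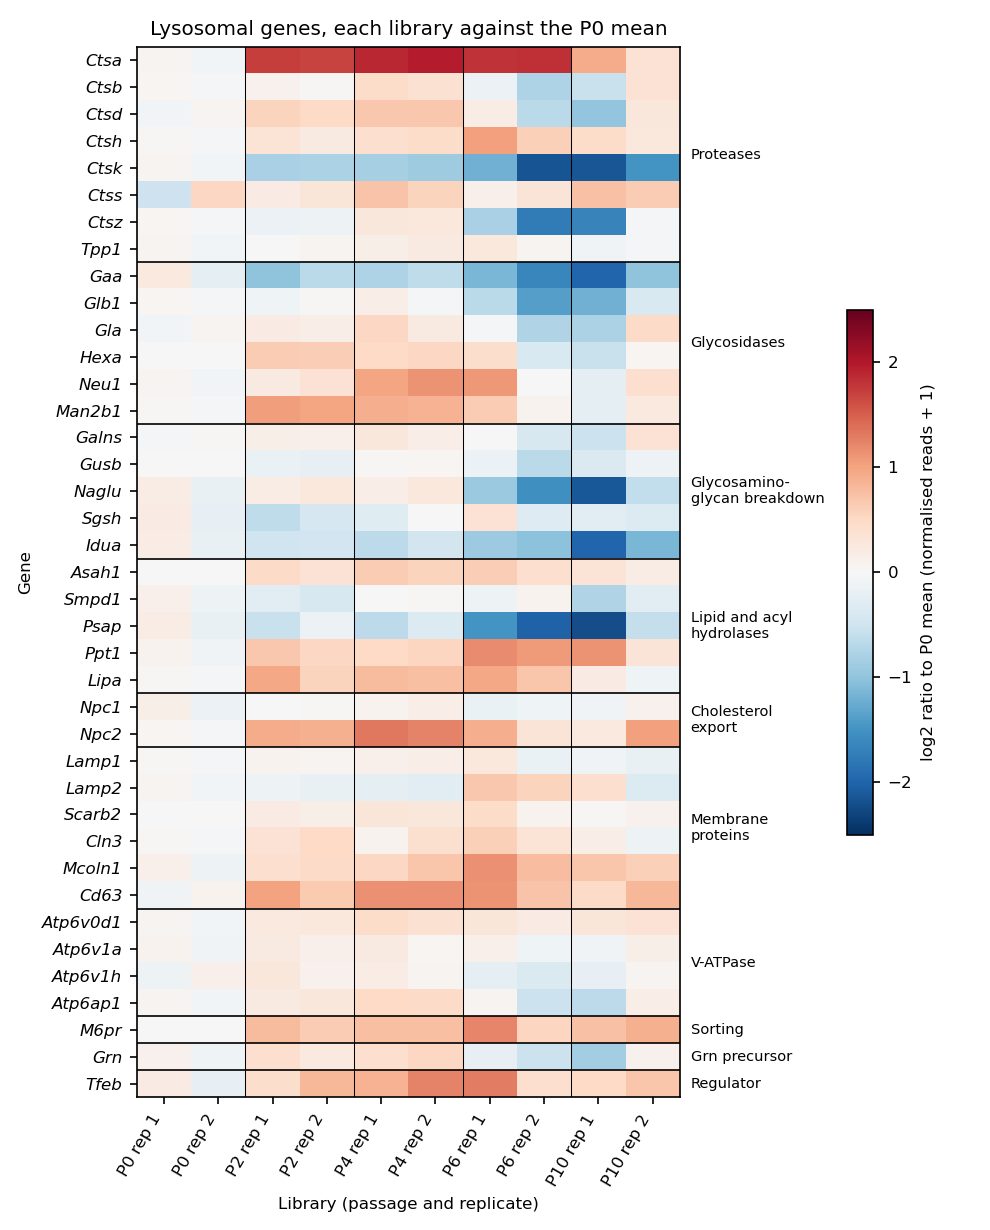
Heat map of the 39 genes (rows, by role) in the 10 libraries (columns); colour is the log2 ratio of normalised reads plus 1 to the mean of the 2 P0 libraries, red above and blue below. Ctsa is the reddest row from P2 to P6, while Gaa, Ctsk, Idua and Psap are blue or pale blue from P2 to P10.

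**Figure D2:**
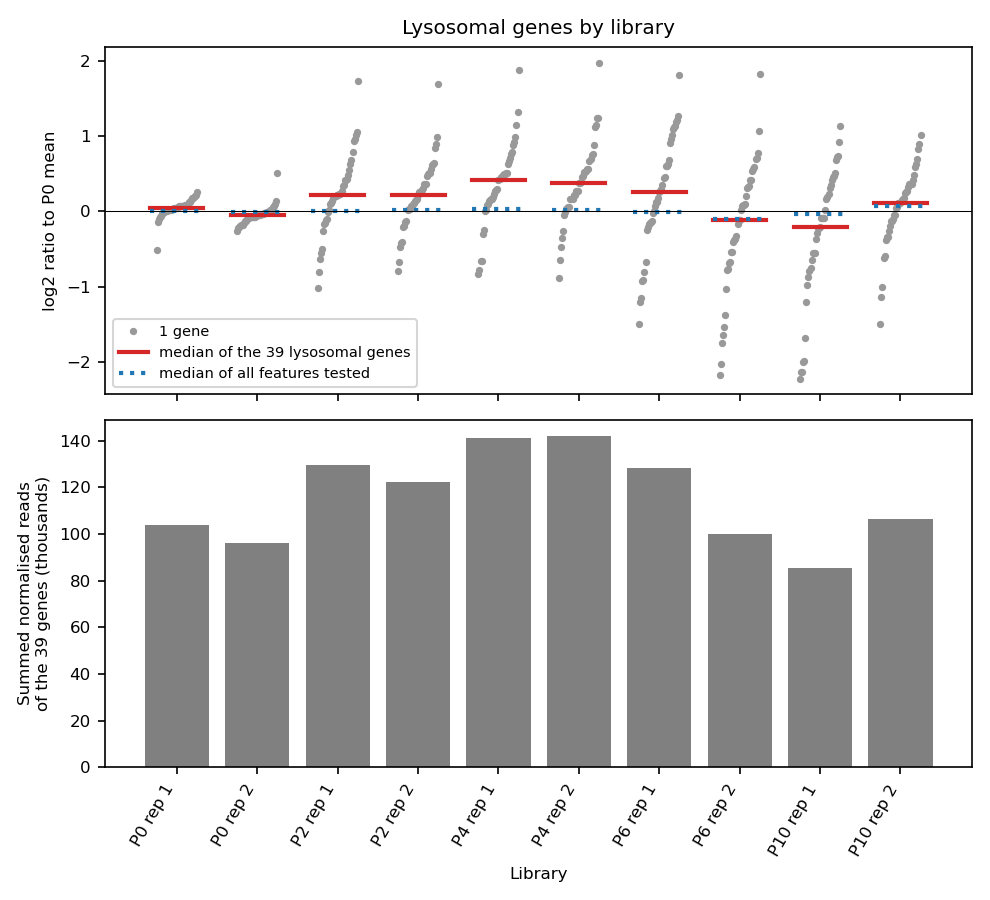
Upper panel, log2 ratio to the P0 mean for each of the 39 genes (grey points, sorted within a library), with their median (red) and the median of the 13521 features tested (dotted blue); lower panel, summed normalised reads of the 39 genes on a linear axis. The sum is highest in the 2 P4 libraries, at 141035 and 141949, and the points spread widest in P6 replicate 2 and P10 replicate 1.

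Set against P0, few single genes passed the test at P2, P4 or P10, and 12 did at P6. Changes are given on the scale of log2(normalised reads + 1), which understates those of genes with few reads, and were called when limma's p-value, adjusted over all features (Benjamini-Hochberg), was under 0.05. At P2, 2 of 39 rose and none fell (5.13%, against 4.15% of all features called, 2.08% higher and 2.07% lower); the risers were Ctsa and Man2b1. At P4, 4 rose and none fell (10.3%, against 9.24%, with 3.72% higher and 5.52% lower), adding Npc2 and Cd63. By limma's unadjusted p, 10 genes were under 0.05 at P2 and 12 at P4, while edgeR called none lower at either passage and DESeq2 none. Features under 0.05 by unadjusted p were not counted over the whole series, so such counts, here and below, have no background. At P6, 7 rose and 5 fell (30.8%, against 21%, with 10.5% in each direction): Ctsa, Ctsh, Ppt1, Lipa, Mcoln1, Cd63 and M6pr rose, and Ctsk, Gaa, Glb1, Idua and Psap fell. Centring each library on its median shifted the median of all features at P6 from -0.07 to 0.07, and the calls over all features from 1418 higher and 1423 lower to 1673 and 1085; the lysosomal calls were then 8 and 5. At P10, 1 rose, M6pr, and 3 fell, Ctsk, Gaa and Idua (10.3%, against 17%, with 8.77% higher and 8.25% lower). The shares called at P2 and P4 were near the background of all features. The direction of the small differences leaned upwards at P4, where 33 of 39 genes had a log2 change above 0 (84.6%, against 51.9% of all features) with a median of 0.37, and at P2, where 29 did with a median of 0.22. At P6 and P10 the medians were 0.03 and -0.07. In all, 14 genes passed in at least 1 of these comparisons, which share the P0 libraries, and 25 in none. The share of all features that passed in at least 1 was not counted, so the 14 have no background. At P6 alone it was 21%.

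These counts rest on the spread pooled over all passages. Without the pair, P6 and P10 keep 1 library each, so the spread comes from the P0, P2 and P4 duplicates alone. With P6 replicate 2 and P10 replicate 1 both left out, 17 rose and 5 fell at P2 (34.1% of all features called), and the numbers were 21 higher and 5 lower at P4 (43.1%), 17 higher and 7 lower at P6 (48.8%), and 11 higher and 7 lower at P10 (46.3%); this pair was chosen because it stands apart, and leaving it out lowers the spread, so these p-values are too small. The lysosomal share called was then 56.4% at P2, 66.7% at P4, 61.5% at P6 and 46.2% at P10, the last at the level of all features. In fits of only the 2 passages compared, 16 genes passed at P2 (29.1% of all features), 24 at P4 (42%), 13 at P6 (19.4%) and 0 at P10 (0.362%), so that all 4 calls at P10 were lost, and M6pr at P6. A fit with the level of Dym, as log2(normalised reads + 1), as a covariate was also run. It called 11 (25.6% of all features), 20 (32.2%), 15 (28.9%) and 13 (43.2%) genes, in the same order. Of the calls at P6, Ctsk, Glb1, Idua and Psap were then lost. DESeq2 on recovered reads called 6 (7.85%), 8 (13.4%), 15 (26.2%) and 10 (22.3%).

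Single libraries moved the counts of lysosomal genes and of all features together. At P2, no gene passed without any 1 library of P0 or P2 (0.651% and 0.754% of all features without P0 replicate 1 and 2, and 0.592% and 0.451% without P2 replicate 1 and 2), 1 without P4 replicate 1 or 2 (1.53% and 1.54%), 3 without P6 replicate 1 or 2 (5.09% and 5.1%), and 7 without P10 replicate 1 or 2 (11.7% and 11.6%). At P4, 1 passed without P0 replicate 1 or 2 (1.31% and 2.5%) or P4 replicate 1 or 2 (1.12% and 1.06%), 2 without P2 replicate 1 or 2 (5.16% and 5.15%), 7 without P6 replicate 1 or 2 (11.2% each), and 12 without P10 replicate 1 or 2 (20.6% and 20.4%). At P6, the 12 went down to 1 without P0 replicate 1 or 2 (3.05% and 5.19%), to 6 without P6 replicate 1 (13.3%) or any 1 library of P2 or P4 (11.6% to 12%), and to 7, all higher, without P6 replicate 2 (12.2%). At P10, none passed without P0 replicate 1 (2.33%), 1 without P0 replicate 2 (4.73%), and 14, of which 10 lower, without P10 replicate 2 (35%).

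**Figure D3:**
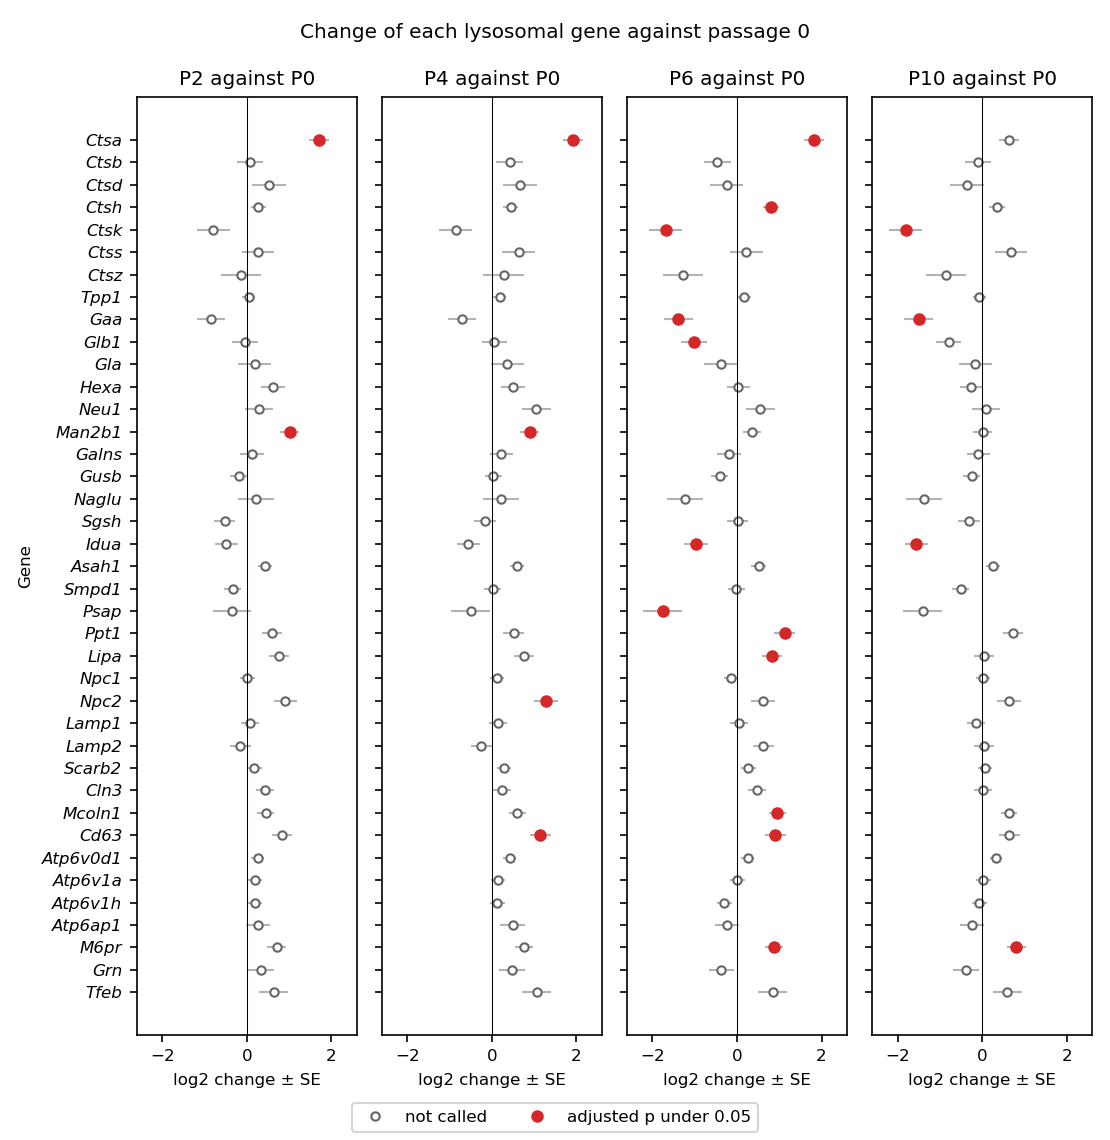
Log2 change of each gene (rows, in the order of the heat map) against P0 at P2, P4, P6 and P10, with its standard error as a bar; filled red points passed limma's test at an adjusted p under 0.05. The filled points number 2, 4, 12 and 4 from left to right.

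Ranks against P0 were also counted without a model. In 11 of the 39 genes (28.2%) all 8 later libraries lay above both P0 libraries, against 13.8% of all features. They were Ctsa, Ctsh, Asah1, Scarb2, Ppt1, Mcoln1, Tfeb, Npc2, Atp6v0d1, Cd63 and M6pr. In 3 genes (7.69%, against 15.4%) all 8 lay below: Ctsk, Gaa and Idua.

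Among the 8 proteases, Ctsa rose at P2, P4 and P6, Ctsh rose at P6 and Ctsk fell at P6 and P10. Ctsa encodes cathepsin A, a serine carboxypeptidase that also protects beta-galactosidase and neuraminidase 1 in a lysosomal complex. Its normalised reads were 4624 and 4207 (P0), 14573 and 14183 (P2), 16184 and 17289 (P4), 15521 and 15648 (P6) and 8353 and 5675 (P10). Every later library was above both P0 libraries, and the 6 libraries from P2 to P6 were all above those of P10. The log2 changes were 1.70 (SE 0.23, adjusted p = 0.00629) at P2, 1.92 (SE 0.23, adjusted p = 0.00252) at P4 and 1.82 (SE 0.23, adjusted p = 0.00227) at P6, and 0.64 (SE 0.23, adjusted p = 0.0905) at P10, where it did not pass. Without the pair of libraries, the changes were 1.82 at P6 and 0.36 at P10, each from 1 library. The calls at P4 and P6 held in each fit that left out 1 library, while that at P2 was lost without any 1 library of P0 or P2 (highest adjusted p = 0.0834). Glb1, beta-galactosidase, had 1154 and 1084 (P0), 1040.4 and 1138 (P2), 1253 and 1082 (P4), 704 and 433 (P6) and 487 and 859 (P10). It fell at P6, with a log2 change of -1.02 (SE 0.30, adjusted p = 0.043), and both P6 and both P10 libraries were below P0. The change at P6 was -0.67 without the pair. Neu1, neuraminidase 1, had 841 and 757 (P0), 929 and 1030.4 (P2), 1576 and 1739 (P4), 1699.7 and 807 (P6) and 683 and 1071 (P10). Its P4 libraries were about level with P6 replicate 1 and above all others. Neu1 passed at no passage, with a difference of 1.05 (SE 0.34, adjusted p = 0.0882) at P4. Without the pair, it was called at P2 and P4, and its differences were 1.09 at P6 and 0.42 at P10, each from 1 library. The Glb1 call was lost without a filter on low values, without a trend in the prior and without P6 replicate 2 or any 1 of the libraries from P0 to P4 (highest adjusted p = 0.206).

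Cathepsin H (Ctsh), an aminopeptidase, rose at P6 from 657 ± 15.1 to 1161 ± 242 normalised reads (SD, n = 2), by 0.80 (SE 0.18, adjusted p = 0.0186). The call was lost without P0 replicate 1 or 2 or P6 replicate 1 (highest adjusted p = 0.109), and the change was 1.02 without the pair. Cathepsin K (Ctsk), a collagen-degrading cysteine protease, had few reads, with 61.8 and 56.1 (P0), 33.3 and 33.5 (P2), 32.7 and 31.5 (P4), 25.0 and 12.4 (P6) and 12.7 and 20.3 (P10). Both P0 libraries were above all others. It fell, with log2 changes of -1.68 (SE 0.39, adjusted p = 0.0203) at P6 and -1.81 (SE 0.39, adjusted p = 0.0165) at P10. Both calls were lost without P0 replicate 1 or 2, the first also without P6 replicate 2 (highest adjusted p = 0.13). Without P6 replicate 2 and P10 replicate 1 the changes were -1.20 and -1.49.

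Cathepsins D and B did not pass at any passage with all libraries. Cathepsin D (Ctsd), the main aspartic protease of lysosomes, had 4931 and 5487 (P0), 7626 and 7392 (P2), 8296 and 8249.5 (P4), 5894 and 3267 (P6) and 2636 and 6288 (P10). The 4 libraries of P2 and P4 were above both P0 libraries, and the duplicates of P6 and of P10 lay on either side of P0. Its log2 differences were 0.67 (SE 0.40, adjusted p = 0.351) at P4 and -0.35 (SE 0.40, adjusted p = 0.592) at P10. Without the pair, it was called at P2 (0.53) and P4 (0.67), and the difference at P10 turned to 0.27, which was not called. Cathepsin B (Ctsb), a cysteine protease, had 6387 and 6018 (P0), 6705 and 6366 (P2), 8516 and 8049 (P4), 5575 and 3609.6 (P6) and 4230 and 7984 (P10), again with the highest mean at P4 and P6 replicate 2 and P10 replicate 1 below P0. Its difference at P10 was -0.09 (SE 0.31, adjusted p = 0.87), and 0.36 without the pair. For cathepsin Z (Ctsz), a carboxypeptidase, P10 replicate 1 had 2823 and replicate 2 had 8689.8, with 9277 and 8719 at P0. Its difference at P10 was -0.86, and -0.05 without the pair. At P6 it had 5134 and 2690, both below P0. Its difference there was -1.28, which did not pass with all libraries, and -0.81 without the pair. Tpp1, tripeptidyl peptidase 1, ranged from 1691 to 2164 and Ctss from 12.2 to 30.4 over the 10 libraries, with no call.

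Of the 6 glycosidases, Man2b1 was called higher at P2 and P4, Gaa lower at P6 and P10, and Glb1 lower at P6. Man2b1, lysosomal alpha-mannosidase, which trims the mannose chains of N-glycans, had 861 and 824 (P0), 1749 and 1666 (P2), 1589 and 1547 (P4), 1301 and 892 (P6) and 721 and 999.7 (P10). The P2 and P4 libraries were above all others and did not overlap with P0, and P10 replicate 1 was below P0. It rose by 1.02 (SE 0.22, adjusted p = 0.0409) at P2 and by 0.90 (SE 0.22, adjusted p = 0.0406) at P4, and stood at 0.01 (SE 0.22, adjusted p = 0.978) at P10, or 0.25 without the pair. Both calls were lost without any 1 of the libraries from P0 to P4 (highest adjusted p = 0.285 at P2), without a filter on low values and without a trend in the prior. Gaa, acid alpha-glucosidase, which releases glucose from glycogen, had 9062 and 6377 (P0), 3769 and 4755 (P2), 4447 and 4878 (P4), 3440.1 and 2440.1 (P6) and 1913 and 3785 (P10). The P0 libraries differed between themselves but were both above every later library. Differences of -0.84 at P2 and -0.71 at P4 were already present for Gaa and did not pass. It fell, with log2 changes of -1.39 (SE 0.34, adjusted p = 0.0238) at P6 and -1.50 (SE 0.34, adjusted p = 0.0196) at P10, calls that were lost without P0 replicate 1 or 2 (highest adjusted p = 0.167), and at P6 without P6 replicate 2; the changes were -1.14 and -1.01 without the pair. Hexa, the alpha subunit of beta-hexosaminidase, and Gla, alpha-galactosidase A, did not pass at any passage with all libraries. Hexa had its highest values at P2, 1646 and 1620.5, against 1071 and 1052 at P0. Its differences from P0 were 0.62, 0.51, 0.03 and -0.25 at P2, P4, P6 and P10. Without the pair, they were 0.44 at P6 and 0.05 at P10. Gla stood at 625 and 1515 in the P10 duplicates, on either side of its P0 values of 1037 and 1135. Its difference of -0.16 at P10 became 0.48 without the pair.

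Of the 5 enzymes that degrade glycosaminoglycans, Idua fell and the other 4 did not pass. Of the 5, 2 had a log2 change above 0 at P2, 3 at P4, 1 at P6 and 0 at P10. Over all features, the shares above 0 were 50.8%, 51.9%, 46.8% and 50.2%, in the same order. Idua, alpha-iduronidase, which cuts dermatan and heparan sulfate, had 647 and 503 (P0), 403 and 411 (P2), 363 and 413 (P4), 304 and 279 (P6) and 143 and 259 (P10). All later libraries were below P0, and P10 replicate 1 was the lowest. It fell, with log2 changes of -0.97 (SE 0.27, adjusted p = 0.0375) at P6 and -1.56 (SE 0.27, adjusted p = 0.00786) at P10. The first call was lost without any 1 of the libraries from P0 to P6 (highest adjusted p = 0.218) and without a trend in the prior, and the second without P0 replicate 1 (adjusted p = 0.0861). Without the pair, the changes were -0.91 and -1.14. Naglu, which removes N-acetylglucosamine from heparan sulfate, had 753 and 584 (P0), 753 and 797 (P2), 741 and 798 (P4), 349.8 and 228 (P6) and 151 and 431 (P10), and the libraries of P6 and P10 were all below P0. Its difference of -1.37 (SE 0.42, adjusted p = 0.0567) at P10 did not pass, and was -0.62 without the pair. Sgsh, a heparan sulfamidase, Gusb, beta-glucuronidase, and Galns, a galactosamine 6-sulfatase, had log2 differences at P10 of -0.31, -0.24 and -0.09, with no call at any passage with all libraries. Without the pair, these differences were -0.34, -0.12 and 0.37.

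Of the 5 genes of lipid and acyl breakdown, Ppt1 and Lipa rose at P6 and Psap fell there. Ppt1, palmitoyl-protein thioesterase 1, which removes fatty acids from proteins, had 1209 and 1081 (P0), 1833 and 1629 (P2), 1605 and 1654 (P4), 2595 and 2395 (P6) and 2504 and 1436 (P10). All later libraries were above P0. It rose at P6 by 1.12 (SE 0.25, adjusted p = 0.0163), a call lost without P0 replicate 1 or 2 or P6 replicate 1 (highest adjusted p = 0.105), and the change was 1.18 without the pair. Lipa, lysosomal acid lipase, which frees cholesterol and fatty acids from lipoprotein lipids, had 7253 and 6999 (P0), 13878 and 10487 (P2), 12264 and 11922 (P4), 13872 and 11575 (P6) and 8169 and 6622 (P10). It was above P0 in all 6 libraries from P2 to P6, and the P10 libraries lay around P0. It rose at P6 by 0.83 (SE 0.23, adjusted p = 0.0353), and its differences of 0.76 at P2 and 0.76 at P4 did not pass. The P6 call was lost without any 1 of the libraries from P0 to P6 (highest adjusted p = 0.168) and without a filter on low values, and the change was 0.96 without the pair. Psap, the precursor of the saposins that present sphingolipids to their hydrolases, had 4111 and 3160.4 (P0), 2458 and 3268 (P2), 2292 and 2826 (P4), 1276 and 889.8 (P6) and 775 and 2389 (P10). It fell at P6, with a log2 change of -1.76 (SE 0.46, adjusted p = 0.0291), and P10 replicate 2 was 3.08 times replicate 1. That call was lost without any 1 of the libraries from P0 to P6 (highest adjusted p = 0.172), and without the pair the changes were -1.50 at P6 and -0.59 at P10. Asah1, acid ceramidase, ranged from 3064 and 3136 at P0 to 4802 in P4 replicate 1. It did not pass with all libraries, with a difference of 0.60 (SE 0.17, adjusted p = 0.0613) at P4. At P6 its difference was 0.51, or 0.61 without the pair. Smpd1, acid sphingomyelinase, did not pass with all libraries either, with a difference of -0.51 (SE 0.20, adjusted p = 0.118) at P10, or -0.26 without the pair.

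Of the 2 proteins that hand cholesterol out of the lysosome, Npc2 rose at P4 and Npc1 did not pass at any passage. Npc2, the soluble carrier, had 2669 and 2492 (P0), 4923 and 4795 (P2), 6429.7 and 6062 (P4), 4817 and 3203 (P6) and 3040.3 and 5231 (P10). All later libraries were above P0, highest at P4. It rose at P4 by 1.28 (SE 0.28, adjusted p = 0.0261), a call lost without any 1 of the libraries from P0 to P4 (highest adjusted p = 0.184). Npc1, the membrane protein that receives cholesterol from it, had 727 and 588 (P0), 652 and 671 (P2), 699.6 and 731 (P4), 582 and 607 (P6) and 618 and 706 (P10). Its 8 later libraries ran from 582 to 731, about the span of the P0 duplicates, and its log2 differences from P0 were 0.02, 0.13, -0.14 and 0.01 at P2, P4, P6 and P10 (lowest adjusted p = 0.562). Without the pair, the differences at P6 and P10 were 0.90 and 1.02 for Npc2, and -0.17 and 0.11 for Npc1. The difference between the 2 genes was not tested.

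Of the 6 membrane proteins and channels, Cd63 rose at P4 and P6, Mcoln1 rose at P6, and the other 4 did not pass. Lamp1, a major glycoprotein of the lysosomal membrane, had 8799.6 and 8385 (P0), 9171 and 9034 (P2), 9439 and 9659 (P4), 10350.1 and 7629 (P6) and 8123 and 7514 (P10). The P2 and P4 libraries were above P0, the P6 duplicates lay on either side of it and the P10 libraries below it, with a difference of -0.14 (SE 0.21, adjusted p = 0.704) at P10, or -0.19 without the pair. Lamp2, a related glycoprotein, was at 8249.7 and 7569.7 at P6, above 5390.2 and 4902 at P0, with a difference of 0.62 (SE 0.25, adjusted p = 0.103). Its P10 duplicates were 6882 and 4077. Without the pair, the differences of Lamp2 were 0.68 at P6 and -0.33 at P10. Cd63, a tetraspanin of late endosomes, lysosomes and exosomes, had 5194 and 5929.9 (P0), 11170.4 and 8702 (P2), 12325 and 12297 (P4), 12008 and 9058 (P6) and 7685 and 9816 (P10). All later libraries were above P0. It rose by 1.15 (SE 0.24, adjusted p = 0.0214) at P4 and 0.91 (SE 0.24, adjusted p = 0.0312) at P6. The P4 call was lost without any 1 library of P0 or P4 (highest adjusted p = 0.187), and the P6 call without P6 replicate 1 or any 1 of the libraries from P0 to P4 (highest adjusted p = 0.188) and without a filter on low values. Mcoln1, the calcium channel mucolipin 1, had 275 and 233 (P0), 337 and 352 (P2), 362 and 410.3 (P4), 559 and 434 (P6) and 408 and 382 (P10), again all above P0. It rose at P6 by 0.96 (SE 0.19, adjusted p = 0.0119), and the call was lost without P0 replicate 1 or 2 (highest adjusted p = 0.0919). Without the pair, the changes at P6 were 1.11 for Cd63 and 1.14 for Mcoln1. Scarb2, which carries beta-glucocerebrosidase to the lysosome, ranged from 2068 to 2859. Cln3, a membrane protein mutated in a juvenile storage disease, ranged from 171 to 284. Neither was called with all libraries. Their differences at P6 were 0.27 and 0.47, or 0.46 and 0.60 without the pair. At P10 they were 0.06 and 0.02, or 0.11 and -0.13 without the pair.

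**Figure D4:**
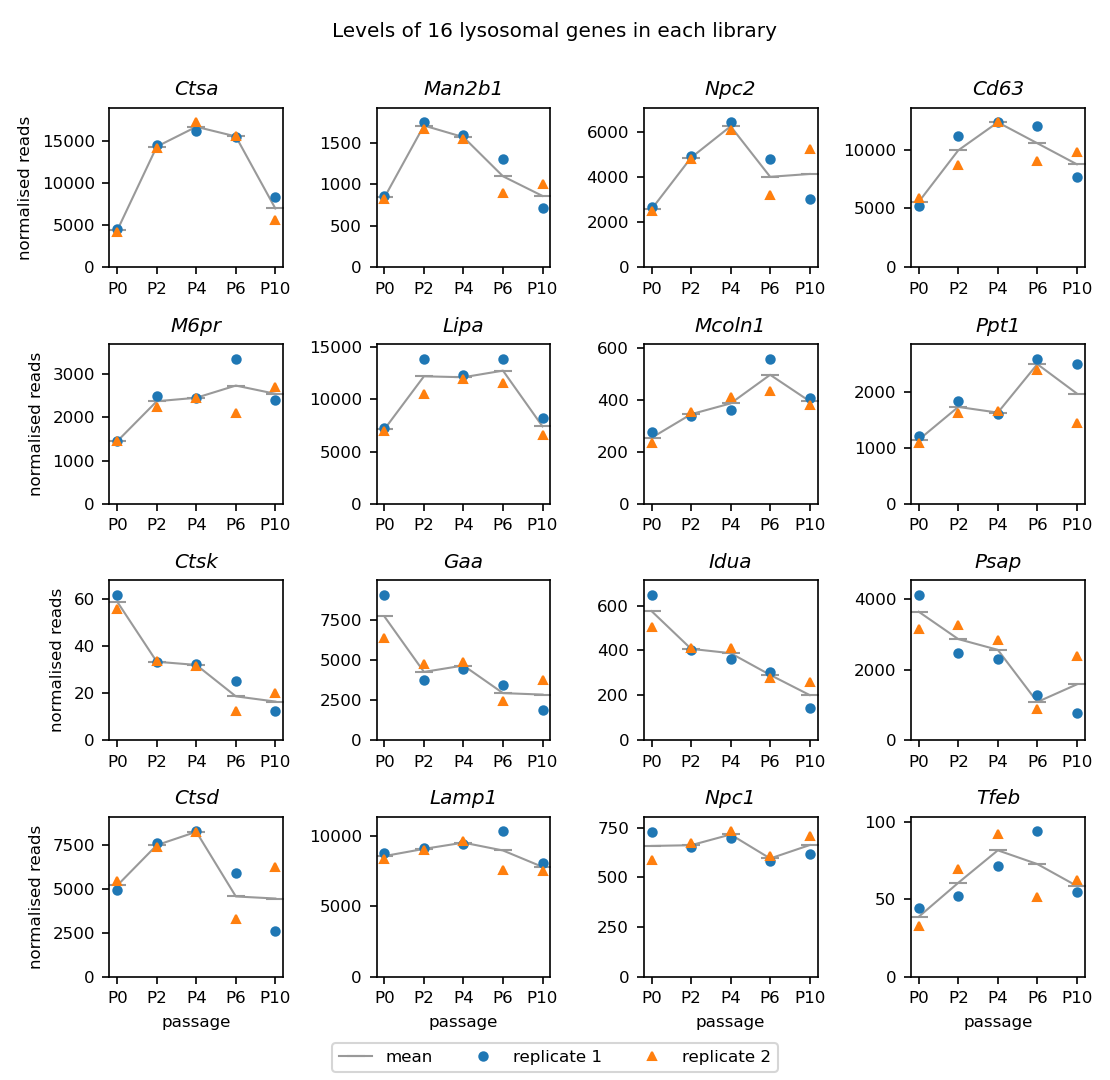
Normalised reads (vertical axes, each from 0) of 16 of the genes at the 5 passages; circles are replicate 1, triangles replicate 2, and the grey line joins the means of the 2. The first 8 genes lie above P0 at P2 and P4, those of the third row (Ctsk, Gaa, Idua and Psap) lie below P0 at P6 and P10, and the last row shows Ctsd, Lamp1, Npc1 and Tfeb, none of which passed the test.

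None of the 4 genes of the proton pump passed at any passage with all libraries, by limma, edgeR or DESeq2; 1, at P4, had an unadjusted p under 0.05 by limma. Without P6 replicate 2 and P10 replicate 1, limma called Atp6v0d1 higher at P2 and P4 (0.26 and 0.42), and Atp6ap1 too (0.26 and 0.49). The differences of Atp6v0d1 were then 0.30 at P6 and 0.36 at P10, each from 1 library. Atp6v1a, the catalytic subunit of the V-ATPase, had 1774 and 1564 (P0), 1953 and 1831 (P2), 1956 and 1731 (P4), 1810 and 1540.2 (P6) and 1562 and 1856 (P10). P0 overlapped with every later passage except P2, and the ratio of its highest to its lowest passage mean was 1.13, the smallest of the 39 genes, for which the median ratio was 1.79. Its log2 difference at P10 was 0.03 (SE 0.17, adjusted p = 0.921), or 0.16 without the pair. At P4 the other 3 had differences of 0.42 (Atp6v0d1, in the membrane sector), 0.13 (Atp6v1h, a regulatory subunit) and 0.49 (Atp6ap1, an accessory subunit).

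M6pr, the cation-dependent mannose 6-phosphate receptor that sorts new hydrolases, was the one gene called higher at P10. It had 1449 and 1447 (P0), 2496 and 2247 (P2), 2452 and 2452 (P4), 3359 and 2109.8 (P6) and 2396 and 2692 (P10). The P0 duplicates were almost equal and all later libraries lay above them. It rose by 0.88 (SE 0.22, adjusted p = 0.0266) at P6 and by 0.81 (SE 0.22, adjusted p = 0.0382) at P10, after differences of 0.71 at P2 and 0.76 at P4 that did not pass. The P10 call was lost without any 1 of the libraries from P0 to P4 (highest adjusted p = 0.189), without a filter on low values and without a trend in the prior, and the P6 call was lost without P6 replicate 1 or any 1 of the libraries from P0 to P4 (highest adjusted p = 0.143). Without the pair, the changes were 1.21 at P6 and 0.89 at P10.

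Grn, which encodes progranulin, the precursor of the granulins, was higher in the 4 libraries of P2 and P4 (6577 to 7905) than at P0 (5927 and 5135). It did not pass with all libraries. Its P10 duplicates stood at 3012 and 5949.8, a difference of -0.38 that became 0.11 without the pair. Tfeb, the transcription factor that activates lysosomal genes, had few reads, with 44.4 and 33.1 (P0), 52.1 and 69.3 (P2), 71.2 and 92.1 (P4), 93.9 and 51.7 (P6) and 54.8 and 62.4 (P10). All 8 later libraries were above both P0 libraries, and the duplicates differed most at P6. Its log2 differences of 1.06 (SE 0.35, adjusted p = 0.0959) at P4 and 0.85 (SE 0.35, adjusted p = 0.112) at P6 did not pass. Without the pair, Tfeb was called at P4, and its difference at P6, from 1 library, was 1.27. These are transcript levels; Tfeb is known to be controlled largely through phosphorylation and nuclear entry, which were not measured. Of its relatives, Mitf fell at P4, with a log2 change of -1.35 (SE 0.35, adjusted p = 0.0476) and 372 and 310 against 705 and 1068 at P0. That call was lost without any 1 of the libraries from P0 to P4 (highest adjusted p = 0.278). Tfe3 did not pass, with a difference of -0.08 at P4.

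The median gap between duplicates of these genes, in log2, was 0.43 at P6 and 0.49 at P10, against 0.43 and 0.58 over all features. At P6, 4 of the 39 genes were higher in replicate 2 (44.8% of all features), and 35 were lower. At P10, 28 were higher in replicate 2 (50.3% of all features). Lower in P6 replicate 2 and higher in P10 replicate 2 were 26 genes (66.7%, against 40.6% of all features). Gaps of opposite direction at P6 and P10, whichever way round, were seen in 28 genes (71.8%, against 75.7% of all features). At P10 the gaps were largest for Psap, Ctsz, Naglu, Gla and Ctsd, whose replicate 2 was 3.08, 3.08, 2.85, 2.42 and 2.39 times replicate 1. Lamp2, Ppt1 and Ctsa went the other way, with ratios of 0.592, 0.573 and 0.679. The Dym share moved alongside, at 1.41% in P10 replicate 1 and 10.7% in replicate 2, and at 4.32% and 1.15% in the P6 duplicates; its part in these gaps was not tested.

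**Figure D5:**
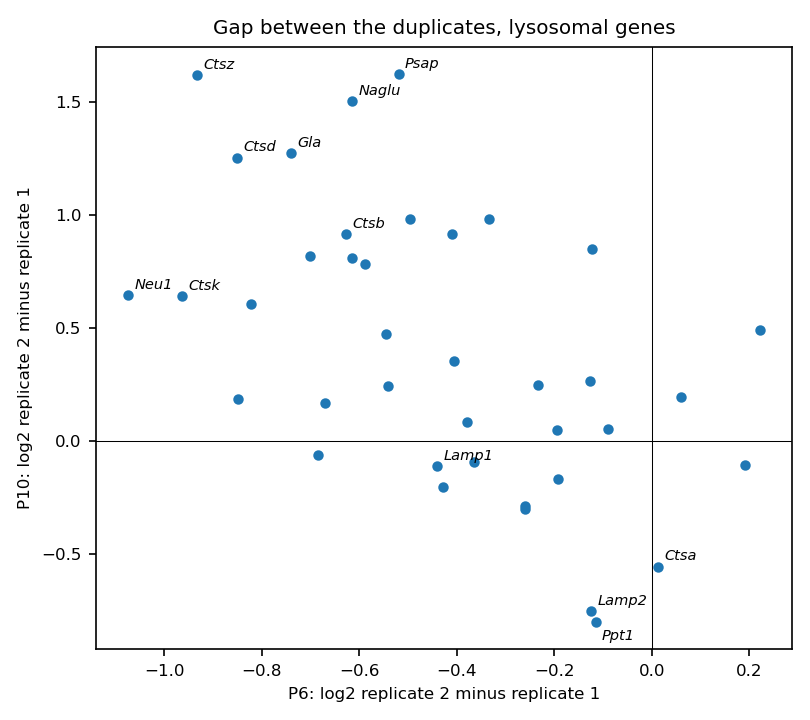
Each point is 1 of the 39 genes; the axes give the log2 difference of replicate 2 minus replicate 1 at P6 (horizontal) and P10 (vertical). The upper left quadrant, lower in P6 replicate 2 and higher in P10 replicate 2, holds 26 of the 39 genes.

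Between P2 and P10 no lysosomal gene passed the test, while 1.26% of all features did. By limma, 10 of the 39 had an unadjusted p under 0.05, a share not counted over all features. The quasi-likelihood test of edgeR on recovered reads also called 0, and DESeq2 called 5, all lower (6.18% of all features). The median difference was -0.22 and 8 of 39 were above 0, against a median of 0.00 and 50.3% for all features. Ctsa came to -1.06 (SE 0.23, adjusted p = 0.0682), Man2b1 to -1.01 (SE 0.22, adjusted p = 0.0691) and Naglu to -1.60 (SE 0.42, adjusted p = 0.108). Without P10 replicate 2, 2 genes were higher and 14 lower (25.9% of all features called); without P6 replicate 2 and P10 replicate 1, 7 were lower (22% of all features called), Man2b1, Lipa, Naglu, Cln3, Idua, Hexa and Ctsa; and without P10 replicate 1 alone, 1 was lower (1.01%), as without P6 replicate 1 or 2 (1.49% each).

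Other genes of the pathway were taken from 7 lists with 158 genes, of which 148 were tested. Without P0 replicate 1, Abca2 alone of all 148 passed at P10, and with only P0 and P10 in the fit none did. Among 31 further hydrolases and cofactors, 1 rose and 2 fell at P10 (17% of all features called). Ggh, a hydrolase of polyglutamated folates, rose by 0.91 (SE 0.20, adjusted p = 0.0165), Acp5, a tartrate-resistant acid phosphatase, fell from 529.6 and 527 to 138 and 216, a log2 change of -1.61 (SE 0.29, adjusted p = 0.00878), and Hyal1, a hyaluronidase, fell, with a log2 change of -1.58 (SE 0.41, adjusted p = 0.0312). The first pair of calls was lost without P0 replicate 1 or 2, and that of Hyal1 also without P10 replicate 1 or any 1 library of P2 or P4 (highest adjusted p = 0.182). Of 14 further V-ATPase subunits, 1 rose, Atp6v1d, by 0.89 (SE 0.20, adjusted p = 0.0192), lost without P0 replicate 1 or 2, and none fell. Of 28 further membrane proteins, none rose and 3 fell. Abca2, a lipid transporter, fell from 1089.7 and 688 to 132 and 204, a log2 change of -2.40 (SE 0.30, adjusted p = 0.00201), and passed in each fit that left out 1 library. Sidt2, a nucleic acid transporter, had a log2 change of -1.02 (SE 0.20, adjusted p = 0.0114), lost without P0 replicate 1, and Mfsd1 one of -1.13 (SE 0.28, adjusted p = 0.0278), lost without P10 replicate 1 or any 1 of the libraries from P0 to P4. Without P6 replicate 2 and P10 replicate 1, these lists had 5 higher and 6 lower, 6 and 1, and 9 and 7 (46.3% of all features called), and the changes of Ggh, Acp5, Hyal1, Atp6v1d, Abca2, Sidt2 and Mfsd1 were 0.63, -1.29, -1.36, 0.62, -2.08, -0.95 and -0.71. Without P10 replicate 2, they had 4 higher and 10 lower, 2 and 1, and 4 and 7 (35% of all features). With median centring the hydrolases had 1 higher and 4 lower (16.1% of all features called), and the call of Hyal1 was lost without a filter on low values. Cd68, a lysosomal membrane protein that is also one of the macrophage markers above, rose at P4 and P6 by 1.34 and 1.53, and differed by 0.73 (SE 0.31, adjusted p = 0.138) at P10, or by 1.41 and 0.35 at P6 and P10 without the pair. Its call at P4 was lost without any 1 of the libraries from P0 to P4, and that at P6 without P0 replicate 1 or 2 or P6 replicate 2.

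Among the machinery around the lysosome, none of 26 genes of mannose 6-phosphate tagging and sorting passed at P10 by limma. By its unadjusted p, 2 were under 0.05, a share not counted over all features. Of these 26, edgeR called 0 and DESeq2 1 higher and 1 lower (17.4% and 22.3% of all features called). Without P6 replicate 2 and P10 replicate 1, 6 were higher and 5 lower (46.3% of all features called), and without P10 replicate 2, 3 and 5 (35%). Igf2r, the larger mannose 6-phosphate receptor, had a difference of 0.30 (SE 0.28, adjusted p = 0.51) at P10, and 0.66 without the pair. In the list of Ragulator, Rag GTPases and mTORC1, the kinase complex that reads amino acids at the lysosomal surface, 3 of 21 rose and 3 fell at P10. Of all features, 17% were called at P10, with 8.77% higher and 8.25% lower. Rptor, the scaffold of mTORC1, had 1562 and 1417 (P0), 952 and 873 (P2), 754 and 783 (P4), 653 and 763 (P6) and 701 and 752 (P10), with all later libraries below P0, and fell, with a log2 change of -1.03 (SE 0.16, adjusted p = 0.00481) at P10. Mtor, its kinase, fell, with -0.88 (SE 0.23, adjusted p = 0.0325), and so did Tsc2, an inhibitor of the pathway, with -1.24 (SE 0.26, adjusted p = 0.0139). Rheb, the GTPase that activates the complex, rose by 0.57 (SE 0.15, adjusted p = 0.0346). Rptor and Tsc2 were lost without P0 replicate 1 (adjusted p = 0.0634 and 0.13), Rheb without any 1 of the libraries from P0 to P4, and Mtor also without P10 replicate 1 (highest adjusted p = 0.224). Without the pair of libraries, 8 of this list were higher and 7 lower (46.3% of all features called), and without P6 replicate 1 or 2, 3 and 6 (18.9% and 18.8%); the changes of Rptor, Mtor, Tsc2 and Rheb without the pair were -0.98, -0.59, -0.95 and 0.57. The list had no higher call without a filter on low values or without a trend in the prior, and 1, Rheb, with TMM rescaling or edgeR; Mtor was lost without a trend. Of 26 autophagy genes, 3 rose and 2 fell, or 5 and 3 without the pair (46.3%), and 4 and 7 without P10 replicate 2 (35%). With all libraries, 17% of all features were called at P10. Of the 3 autophagy genes that rose, Sqstm1 alone was called without a filter on low values, without a trend or with median centring. Sqstm1, the receptor p62, rose by 0.89 (SE 0.22, adjusted p = 0.0284) and the conjugating enzyme Atg3 by 0.76 (SE 0.20, adjusted p = 0.0365), while the initiation factors Atg13 and Ulk1 fell, Atg13 from 398 and 295 to 162 and 180.3 normalised reads (adjusted p = 0.0282) and Ulk1 with a log2 change of -1.03 (SE 0.27, adjusted p = 0.0311). Each of these 4 calls was lost without P0 replicate 1, P0 replicate 2, P4 replicate 1 or P4 replicate 2 (highest adjusted p = 0.223), those of Sqstm1, Atg3 and Ulk1 also without P2 replicate 1 or 2, and those of Atg3, Atg13 and Ulk1 without P10 replicate 1. Without the pair, the changes of Sqstm1, Atg3, Atg13 and Ulk1 were 1.11, 0.48, -0.92 and -0.88.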

How the data were processed

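RNA-seq signal values, reads normalised by library size, were deposited by the authors in 1 table for the 10 libraries; DESeq is named for this step per the submitters' processing notes, and aligner and genome build were not given in the sources used here. Low values in 9 libraries were whole multiples of 1 read's worth, so reads were recovered (largest distance from whole reads 0.0008); in P4 replicate 1, whose step lies near 1, the same reading was assumed. Gene numbers were matched to symbols with RefSeq. From the signal, log2(value + 1) was tested with limma 3.58.1 (R 4.3.3, trended prior, 5 residual degrees of freedom, two-sided) in 1 fit of all 10 libraries, on 13521 features with a mean of at least 10, adjusted by Benjamini-Hochberg within each comparison (threshold 0.05). The fit was tested on simulated data. Counts recovered from the deposited values were tested with edgeR 4.0.16 and DESeq2 1.42.0; other scalings, filters, designs and left-out libraries were also run. Values in every library were to be given for genes called at P2 or P10, and for Lamp1, Ctsd, Ctsb, Tfeb, Npc1, Atp6v1a and M6pr, with up to 4 called genes from each other list; Npc2, Cd63, Psap, Ppt1, Lipa, Mcoln1, Glb1, Neu1, Naglu and Rptor in every library, and values of Mitf, Tfe3, Cd68, Igf2r, Itgax, Star and Fn1, were added after their values were seen. The members and lists were chosen with earlier results of these data known. Promoter and protein sequences were not analysed here.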

Additional observations from a re-analysis of the deposited data

How the results depend on the processing

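The number of lysosomal genes called was within 1.5 times its first value at all comparisons with a pseudocount of 0.5 or 10, TMM rescaling, median centring, a mean of at least 50 and edgeR. Without a filter on low values, or without a trend in the prior, 1 gene was called at P2 in place of 2. The shares of all features called were then 1.92% and 3.16%. With only the 2 passages compared, 16, 24 and 0 were called at P2, P4 and P10. With the log2 level of Dym as a covariate, the counts were 11, 20 and 13 at P2, P4 and P10. For P10 against P2 it was 6 (17.3% of all features). DESeq2 gave 6, 8, 10 and 5 for the same comparisons. Without P6 replicate 2 and P10 replicate 1, they were 22, 26, 24, 18 and 7 at P2, P4, P6, P10 and P10 against P2. Leaving out 1 library gave 0 to 7 at P2, 1 to 12 at P4, 1 to 17 at P6, 0 to 14 at P10 and 0 to 16 for P10 against P2.

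Direction turned, with a call, in 6 cases. Without the pair, which leaves 1 library at P10, Ctsb (0.36), Gla (0.48) and Galns (0.37) were higher and Lamp2 (-0.33) lower there. With the Dym covariate, Ctsd (0.73) and Gla (0.56) were higher at P6. The cause was not tested.

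Replicate numbers did not pair the libraries: correlations of duplicate differences between passages ran from -0.67 to 0.225. With the replicate block as a term, 1, 2, 9, 3 and 0 genes were called at P2, P4, P6, P10 and P10 against P2. The shares of all features called were 1.93%, 5.67%, 15%, 12.5% and 0.355%, in the same order. The pairing is by number only. With 2 libraries a passage, the spread of any 1 passage rests on 1 difference, and genes with few reads, such as Ctsk and Tfeb, are limited by counting error as well.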
